A study of Mus musculus with 12 samples.

Results

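The comparison described here set vehicle mice carrying the Williams–Beuren syndrome deletion (VEH-CD) against vehicle wild-type mice (VEH-WT), in the cortex, across all expressed genes. Its members were the 6 vehicle mice of a series of 12, 3 in each group, and the 17111 genes of 17202 in the table whose mean normalized count over the 12 samples was at least 10. CD mice carry a heterozygous deletion of the chromosome 5 interval from Gtf2i to Fkbp6 and keep 1 copy of each gene in it. All mice were males given an age of 16 weeks in the sample labels (the study's methods give a younger age at sacrifice), on a mostly C57BL/6J background, and had been crossed to a Thy1-YFP line, in which a part of the cortical neurons expresses a fluorescent protein. The labels call the control mice untreated, whereas the study's methods give them drinking water with DMSO as vehicle. The other 6 mice of the series (VERCUR-WT and VERCUR-CD) had the same genotypes and received verapamil, a calcium channel blocker, together with curcumin, a phenol of turmeric. They entered the same fit and served as a separate pair of genotype groups.

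Williams–Beuren syndrome is a neurodevelopmental disorder caused by the loss of 1 copy of a block of genes, and its features include heart disease, hypersociability and motor problems. Genes of the block range from general transcription factors to cytoskeletal regulators and proteins of the presynaptic release machinery. When a single copy is left, the RNA of many genes falls to about the level that the remaining copy can make, and genes elsewhere in the genome can follow. The cortex also contains a class of transcripts, the immediate early genes, that rise within minutes of neuronal firing and encode transcription factors (Fos, Egr and Nr4a families), synaptic effectors (Arc, Homer1) and brakes on the MAPK cascade (Dusp, Spry). Their level in dissected tissue can reflect recent activity and can differ widely between animals. Time of day and order of tissue collection are not given in the sources used here.

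Between 40290000 and 56480000 reads were counted per vehicle mouse. Pairs of vehicle mice correlated over genes with r from 0.9911 to 0.9936 within a group and from 0.9886 to 0.9927 between groups. The cortical excitatory marker Slc17a7, the vesicular glutamate transporter, lay between 93944 and 102737 normalized counts in the 6 mice, and Tbr1, a transcription factor of deep-layer cortical neurons, was present in each of them. Markers of striatal neurons summed to 70669 in VEH-WT mouse 3 and 75324 in VEH-CD mouse 1, against 39387 to 42206 in the other 4 vehicle mice. Thus 1 library of each vehicle group carried more striatal RNA. In co-treated mice the sum was 79868 in VERCUR-WT mouse 3 and 60669 in VERCUR-CD mouse 1, against 27355 to 28579 in the rest. Oligodendrocyte markers summed to between 102382 and 239821 within VERCUR-WT. These libraries enter the co-treated contrasts and the shared estimate of spread. Fits below without striatum-rich mice leave out VEH-WT mouse 3 and VEH-CD mouse 1 and keep all co-treated mice. Between VEH-CD and VEH-WT, the median log2 fold change over all genes tested was -0.003, and its median standard error was 0.113.

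A gene was called differentially expressed (a DEG) where its level differed by more than 25% in either direction at an adjusted p under 0.05. By this rule 44 of 17111 genes (0.257%) separated the vehicle genotypes. Of these, 35 were lower (0.205% of genes) and 9 were higher (0.0526%) in VEH-CD. The deleted interval supplied 16 of them, all lower, and the remaining 28 lay outside it, with 19 lower and 9 higher. Another 45 genes had an adjusted p between 0.05 and 0.1, and 28 of these were lower. Without any adjustment, 6.73% of genes were lower and 5.07% higher with p under 0.05. In 11.4% of genes every VEH-CD mouse lay below every VEH-WT mouse, and in 9.28% every VEH-CD mouse lay above. These shares are the background for the counts of list members that follow.

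**Figure D1:**
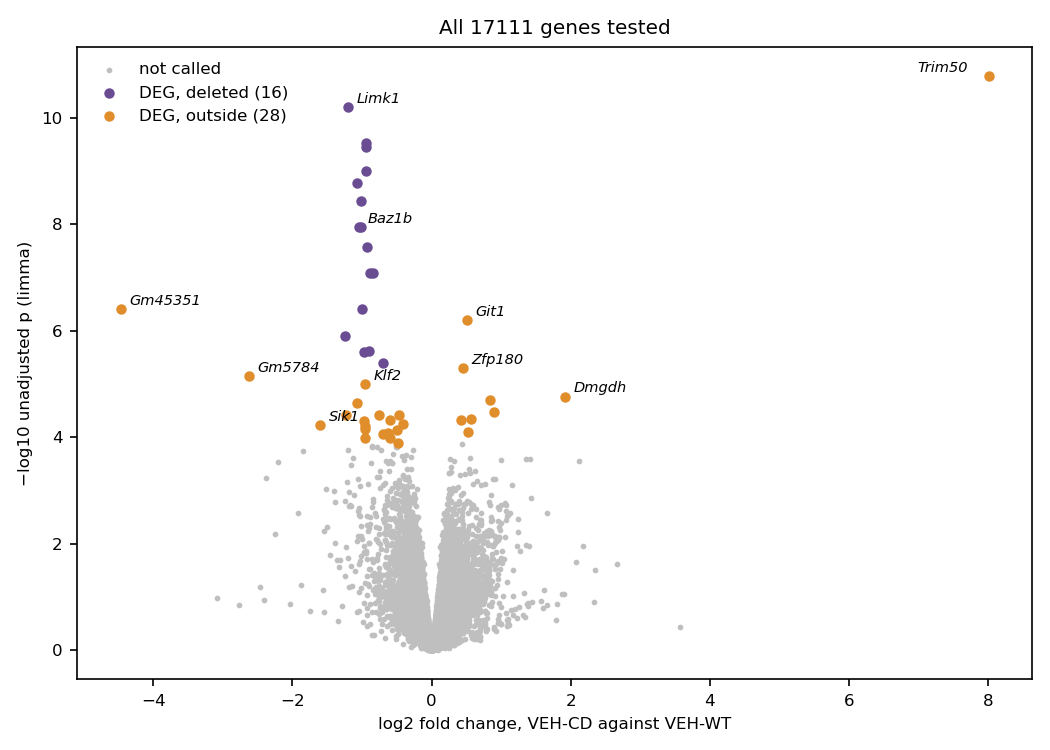
Each point is 1 of the 17111 genes tested, with the log2 difference between VEH-CD and VEH-WT on the horizontal axis and −log10 of the unadjusted limma p on the vertical axis. The 16 deleted DEGs form a column near -1, and Trim50, at 8.01, stands apart from every other gene. As Trim50 had no read in VEH-WT, its value depends on the 1 added to each normalized count before the log.

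From the start of Gtf2i to the end of Fkbp6 the interval covers chr5:134237834-135350044 of GRCm38, and distances below are counted from these ends, since the breakpoints themselves are not given in the sources used here. Of the 23 protein-coding genes listed for the interval, 19 passed the filter, and each of the 19 was lower in all 3 VEH-CD mice than in all 3 VEH-WT mice. The median over the 19 was 51.9% of the VEH-WT level, with a range from 42.2% (Fzd9) to 72.5% (Lat2). A total of 16 passed the DEG rule in the full data and in each of the 6 fits that left out 1 vehicle mouse.

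The 2 genes of the TFII-I family of transcription factors were both called. Gtf2i, at chr5:134237834-134314760 on the minus strand of GRCm38, had 11905, 12750.4 and 12036 normalized counts in VEH-WT and 6189, 6729 and 6138 in VEH-CD (log2 fold change -0.95 ± 0.05 SE, adjusted p = 1.55e-06). Gtf2ird1 read 906, 920.2 and 839 in VEH-WT against 559, 559.8 and 516 in VEH-CD. It kept more of its RNA than Gtf2i, at 61.4% of VEH-WT, with an adjusted p of 0.00357.

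Among the cytoskeletal genes, Limk1, the kinase that inactivates the actin-severing protein cofilin, read 4240.2, 4282 and 4567 in VEH-WT and 1793, 1909 and 1994 in VEH-CD. Its level of 43.5% of VEH-WT (log2 fold change -1.20 ± 0.06 SE, adjusted p = 5.51e-07) was below that of Gtf2i. Clip2, which binds the plus ends of microtubules, lay between 10653 and 12255 in VEH-WT and between 5178 and 5645 in VEH-CD, at 47.8%. Stx1a, the syntaxin of presynaptic vesicle release, went from 17106 to 18596 in VEH-WT down to 9165 to 9587 in VEH-CD, at 52.4%.

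Translation and chromatin genes showed the same size of difference. Eif4h, a cofactor of the initiation helicase eIF4A, read 18961, 18462 and 18178 in VEH-WT and 9569, 9446 and 9927 in VEH-CD. The chromatin genes Baz1b, a subunit of a nucleosome remodeler, and Bcl7b, a subunit of the BAF complex, were at 48.4% and 51.8%. Bud23, a methyltransferase of the small ribosomal RNA, was at 49.5%, and Rfc2, a subunit of the DNA clamp loader, at 54.3%. Rfc2 overlaps Lat2 at its end, and Bud23 overlaps Dnajc30, each pair on opposite strands. The other called genes were Tbl2 at 49.3%, Abhd11 at 50.1%, Mettl27 at 51.2%, Vps37d at 53.7% and Dnajc30 at 55.6%. As no source used here states whether reads were counted by strand, reads in these shared ends cannot be assigned to one gene with certainty.

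Fzd9, a Wnt receptor, had the lowest relative level. It read 303, 271 and 327 in VEH-WT and 139, 99.8 and 143 in VEH-CD (log2 fold change -1.25 ± 0.14 SE, adjusted p = 0.00133). The 3 deleted genes that missed the DEG rule had low counts or wide spread. Lat2, an adaptor of immune cells, had from 52.6 to 57.5 in VEH-CD against 66.9 to 87.8 in VEH-WT (adjusted p = 0.285). Mlxipl, the carbohydrate-responsive transcription factor, was at 63.4% (adjusted p = 0.177), and Eln, which encodes elastin, was at 52.5% with 82.1, 118 and 157 counts in the VEH-CD mice (adjusted p = 0.192). Cldn3, Cldn4, Tmem270 and Fkbp6 were not among the genes analysed here.

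**Figure D2:**
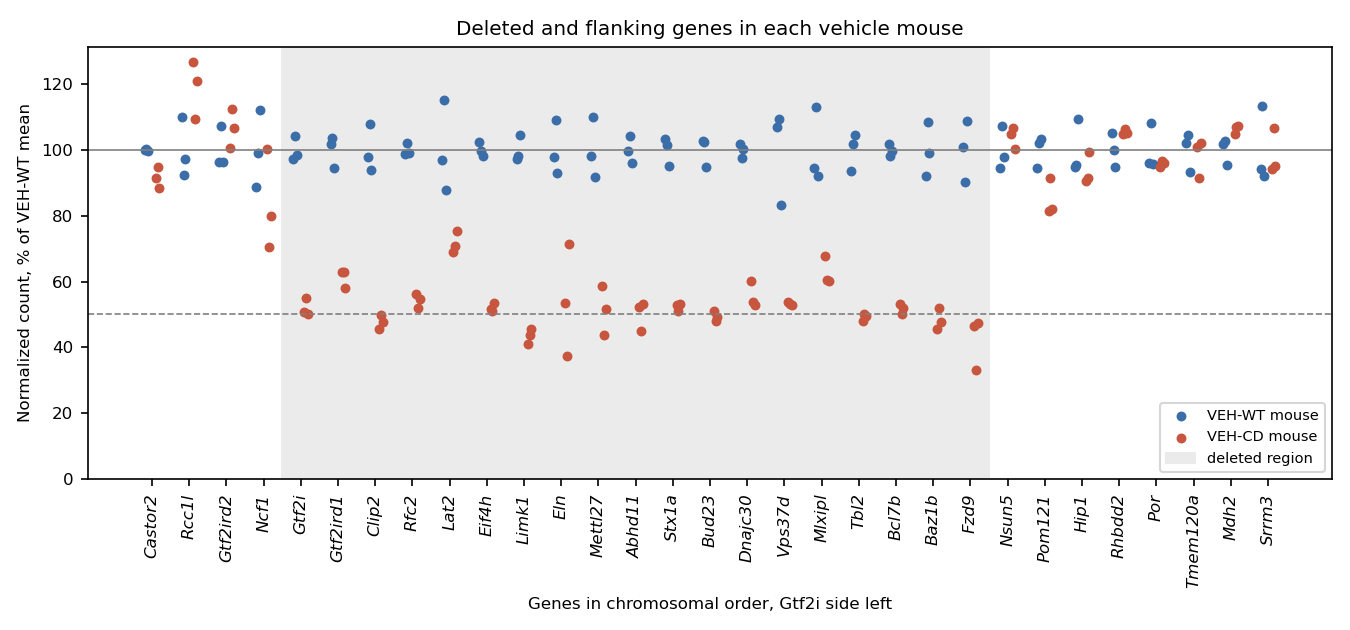
Normalized count of each vehicle mouse as a percentage of the VEH-WT mean, for the deleted genes (grey band) and the protein-coding genes within 0.5 Mb, in chromosomal order, with lines at 50 and 100%. Each VEH-CD point in the band lies below each VEH-WT point of the same gene, and outside the band VEH-CD points lie on both sides of 100%; Trim50 is left out because it has no read in VEH-WT.

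Within 1 Mb of the interval 26 flanking genes were tested, 1 was a DEG, and 6 had an unadjusted p under 0.05. The median of the other 25 was -0.02 on the log2 scale, with a range from -0.68 (Hspb1, a small heat shock protein) to 0.59 (B230377A18Rik). On the Gtf2i side, Ncf1, a subunit of the phagocyte NADPH oxidase, and Gtf2ird2, a further TFII-I family gene, lay 0.008 and 0.013 Mb outside the interval. They had estimates of -0.27 ± 0.14 SE and 0.09 ± 0.09 SE. Rcc1l, further out on that side, was at 119% (adjusted p = 0.405). On the other side, Nsun5 was at 0.06 ± 0.10 SE, and Pom121, a nuclear pore protein, was at 85.0% of VEH-WT (adjusted p = 0.218). Rasa4, a Ras GTPase activating protein 0.734 Mb out, was at 132% (adjusted p = 0.28).

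The flanking DEG was Trim50, which encodes an E3 ubiquitin ligase and lies 0.003 Mb beyond the interval at chr5:135353295-135368005. No read was counted on it in the 3 VEH-WT mice, and the VEH-CD mice had 294, 230.5 and 248 normalized counts. Against a floor of 3 reads over the VEH-WT group the VEH-CD mean of 257 was at least 246-fold higher (adjusted p = 2.79e-07). The gene was the first of all genes by p, and in the co-treated mice the same contrast had an adjusted p of 4.44e-07.

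The 27 other DEGs outside the interval lay on other chromosomes. In each of the 28 the 3 mice of one group lay wholly on one side of the 3 of the other. Selection by p in these same mice favours such a separation, so it is no separate support. The 19 lower ones had a median of 51.7% of the VEH-WT level. Of the 28, 6 (Trim50, Git1, Zfp180, Gm5784, Gm45351 and Klf2) were called in each of the 6 leave-one-out fits. Dmgdh was called in 4, Ighg2c in 3, 8 genes in 2, 11 genes in 1, and Fam43a in 0. The number of DEGs outside the interval was 31 without VEH-WT mouse 1 and 31 without VEH-CD mouse 2. It was 8 without VEH-WT mouse 2, 12 without VEH-WT mouse 3, 8 without VEH-CD mouse 1 and 8 without VEH-CD mouse 3. With both mice rich in striatal RNA left out (VEH-WT 3 and VEH-CD 1), 3 were called (Trim50, Gm45351 and Ighg2c), and Git1, Zfp180, Klf2, Dmgdh and Gm5784 were not. In that fit, with 2 mice a group, their log2 fold changes were 0.48 for Git1, 0.50 for Zfp180, -0.98 for Klf2, 1.66 for Dmgdh and -2.38 for Gm5784, each within the standard error of the value from all mice.

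The higher DEGs began with Git1, a scaffold for the PIX and PAK regulators of actin at synapses. Git1, at chr11:77493562-77507786, read 31022, 29102 and 29731 in VEH-WT and 43760.0, 40368 and 43545 in VEH-CD. The groups were far apart relative to their spread (fold change 1.42, log2 0.51 ± 0.05 SE, adjusted p = 7.11e-04). Zfp180, a zinc finger gene on chromosome 7, read 3408.5, 3373 and 3576 in VEH-WT and 4632, 4865 and 4721 in VEH-CD, a fold change of 1.37 (adjusted p = 0.00432).

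Dmgdh, the mitochondrial dimethylglycine dehydrogenase of choline breakdown, was low in every mouse. It read 19.1, 15.01 and 8.69 in VEH-WT and 51.4, 47.7 and 64.7 in VEH-CD (log2 fold change 1.92 ± 0.29 SE, adjusted p = 0.0128). The call was lost without VEH-CD mouse 1 or VEH-CD mouse 3, with an adjusted p of up to 0.0979. Ddn, which encodes the dendritic protein dendrin, read 69821, 65036 and 72320.0 in VEH-WT and 95577, 88033 and 93984 in VEH-CD (fold change 1.34, adjusted p = 0.0257). B130046B21Rik, annotated on the opposite strand across the same stretch of chromosome 15, was higher by 1.44-fold. Whether reads were assigned by strand is not given, so the pair cannot be counted as separate results. Lemd1 (1.48-fold), Zfp991 (1.79-fold) and Gm4544 (1.86-fold) complete the higher DEGs.

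Among the lower DEGs, 4 had the same call in the co-treated mice, which share no animal with the vehicle mice. Gm45351, on chromosome 7, had 20.2, 38.1 and 27.8 normalized counts in VEH-WT and 0, 0 and 1.20 in VEH-CD. In reads this was 83 against 1, and the exact 95% interval of the ratio ran from 0.0313 to 7.15% of VEH-WT for counting error alone. Gm5784, on chromosome 12, read 70.6, 41.6 and 86.9 in VEH-WT and 9.14, 15.01 and 5.99 in VEH-CD (log2 fold change -2.63 ± 0.36 SE, adjusted p = 0.00579). Ighg2c, the constant region of an immunoglobulin heavy chain, fell from 273, 285 and 237 to 151, 125 and 104, and Gm14295, a zinc finger gene on chromosome 2, from between 1031 and 1156 to between 647 and 804. Gm14403, another zinc finger gene of the same stretch of chromosome 2, was at 42.8% of VEH-WT (adjusted p = 0.0229). Genes of this cluster resemble each other, and how reads shared between copies were counted is not given in the sources used here.

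The other lower DEGs contained transcriptional regulators and signalling genes. Klf2, a Krüppel-like transcription factor, read 637, 925 and 725 in VEH-WT and 387, 361 and 416 in VEH-CD. Outside the interval it was the lower protein-coding DEG with the smallest adjusted p (0.00769, log2 fold change -0.96 ± 0.13 SE). Klf4, of the same family, read 389, 630.4 and 409 against 251, 259 and 208 (adjusted p = 0.0322). VEH-WT mouse 2 was the highest for both genes.

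Sik1, a salt-inducible kinase that restrains CREB coactivators, showed the largest fall among the protein-coding DEGs outside the interval. It read 937, 1622 and 1180.3 in VEH-WT and 334, 444 and 432 in VEH-CD (log2 fold change -1.60 ± 0.27 SE, adjusted p = 0.0286). Spry4, a Sprouty inhibitor of receptor tyrosine kinase signalling, read 897, 1036 and 771 against 393, 582 and 431 (adjusted p = 0.0404). Gadd45a, a stress-induced growth arrest gene, was at 51.4% and the zinc finger gene Zfp189 at 51.0%. Tent5a, a cytoplasmic poly(A) polymerase, read 307, 420.3 and 347 in VEH-WT and 202, 213 and 214 in VEH-CD (adjusted p = 0.0229).

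A further group of DEGs kept more of their RNA than most deleted genes. Gpt2, the mitochondrial alanine transaminase, had the smallest difference of the lower DEGs (log2 fold change -0.42), with 2588, 2965 and 2859 counts in VEH-WT and 2131, 2139.5 and 2027 in VEH-CD. Cdr2l was at 72.1%, Fam43a at 71.2%, Vasn, a TGF-beta binding protein of the cell surface, at 61.5%, and Cnnm4, a magnesium transporter, at 71.6%. The clustered protocadherins Pcdhb17 and Pcdhb3, adhesion proteins of neurons, were at 65.1% and 66.3%. The same doubt over shared reads applies to this cluster. The adjusted p of these 7 genes lay between 0.0229 (Cdr2l) and 0.0489 (Cnnm4).

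The activity-induced genes were then read as lists. Of 73 genes tested in the lists of activity-induced transcription factors, activity-induced effectors and MAPK feedback inhibitors, 4 were DEGs (Klf2, Klf4, Sik1 and Spry4), all lower. In 39 of the 73 (53.4%) every VEH-CD mouse lay below every VEH-WT mouse, and in 1 (Klf6, another Krüppel-like factor) every VEH-CD mouse lay above. The background for the same separation was 11.4% and 9.28%. The median log2 fold change over the 73 was -0.54. Klf4, Sik1 and Spry4 were each called in 1 of the 6 leave-one-out fits, and all 3 lost the call without an intensity trend and with voom on recovered reads. Another 5 genes had an adjusted p between 0.05 and 0.1. Genes of these lists are known to be induced together by neuronal firing, so members are not independent of each other, and the lists were chosen with earlier results of these data known.

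Of 24 activity-induced transcription factors tested, 2 were DEGs, 16 had an estimate below 0 with an unadjusted p under 0.05, and 1 (Klf6) had an estimate above 0. The median log2 fold change was -0.96. Egr2, an Egr family zinc finger factor, read 527, 1346 and 980.4 in VEH-WT and 67.4, 279 and 261 in VEH-CD (log2 fold change -2.37 ± 0.52 SE, adjusted p = 0.105). Fos, the AP-1 subunit used as a marker of recent firing, read 1965, 3081 and 2587 in VEH-WT and 278, 1279 and 819 in VEH-CD (log2 fold change -1.91 ± 0.51 SE, adjusted p = 0.181). For both genes VEH-WT mouse 2 was the highest, VEH-CD mouse 1 the lowest, and the groups did not overlap.

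Egr4 (adjusted p = 0.057), Ier5 (0.0697) and Egr3 (0.0709) came nearest to the DEG rule. Egr3 read 12325, 14567 and 12617 in VEH-WT and 7183, 9325 and 9173 in VEH-CD, at 64.7%. Not every member followed. Jun had an estimate of -0.07 ± 0.11 SE, Jund one of -0.08 ± 0.07 SE, and in Npas4 and Nr4a2 the groups overlapped.

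In the list of activity-induced effectors 29 genes were tested, of which 1 (Sik1) was a DEG and 19 had an estimate below 0 with an unadjusted p under 0.05, and 28 of the 29 estimates were below 0. The median log2 fold change was -0.51. Arc, an organizer of glutamate receptor traffic, read 20198, 34120.1 and 25465 in VEH-WT and 2658, 7210 and 8603 in VEH-CD. The groups did not overlap but were wide within themselves (log2 fold change -2.24 ± 0.69 SE, adjusted p = 0.233). Midn was the nearest to a call after Sik1, at 58.1% of VEH-WT (adjusted p = 0.0528). Gpr3, a receptor that raises cyclic AMP, read 404, 544 and 322 against 199, 271 and 194. Bdnf, the neurotrophin, was at 79.6% with overlapping groups.

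Of the 20 MAPK feedback inhibitors tested, 1 (Spry4) was a DEG and 9 had an estimate below 0 with an unadjusted p under 0.05, and none lay above 0 at that threshold. The median log2 fold change was -0.20. Without VEH-CD mouse 3 the 9 became 5, and Spry4 was called in 1 of the 6 leave-one-out fits. Members differed among themselves, from -1.18 (Dusp5) to 0.53 (Dusp9), both phosphatases of MAP kinases. Dusp5 read 725, 1193 and 760.5 in VEH-WT and 311, 457 and 393 in VEH-CD (log2 fold change -1.18 ± 0.30 SE, adjusted p = 0.16). Dusp6 was at 62.9% (adjusted p = 0.182) and Dusp4 at 48.0% (adjusted p = 0.173). Spry2, a close relative of Spry4, was at 89.7% with overlapping groups.

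**Figure D3:**
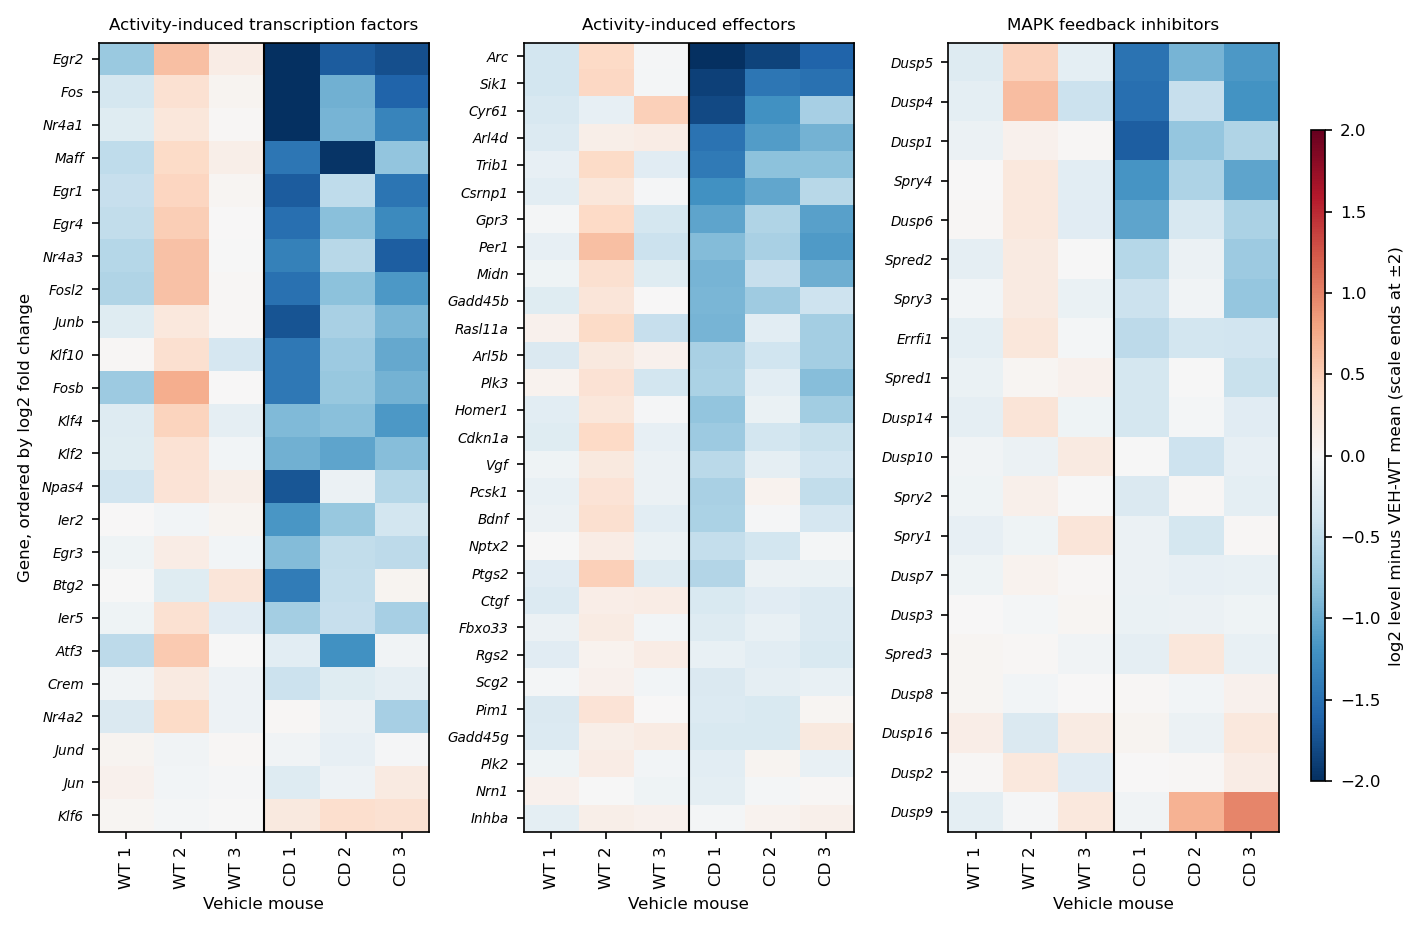
Colour gives log2(normalized count + 1) of each vehicle mouse minus the VEH-WT mean of the gene, for the 3 lists, with genes ordered by log2 fold change and the scale ended at ±2. Blue fills the VEH-CD columns at the top of each panel and is deepest in VEH-CD mouse 1, while VEH-WT mouse 2 is the reddest wild-type column.

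By mouse, the median over the activity-induced transcription factors, on a log2 scale relative to the VEH-WT mean, was -0.25, 0.30 and 0.00 in VEH-WT and -1.37, -0.68 and -0.82 in VEH-CD. The effectors gave -0.19, 0.23 and -0.05 against -0.65, -0.30 and -0.45. Leaving out each vehicle mouse in turn, the median log2 fold change of the transcription factors stayed between -1.07 and -0.76, and that of the effectors between -0.59 and -0.32. In both lists the smallest size came without VEH-WT mouse 2. Without both striatum-rich mice the medians were -0.81 and -0.43. The 19 effectors with an estimate below 0 and an unadjusted p under 0.05 became 11 without VEH-CD mouse 1.

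The same list was read in the co-treated mice. The median of the transcription factors was -0.53, -0.74 and -0.41 in VERCUR-WT and -0.38, -0.80 and -0.53 in VERCUR-CD on the same scale. The co-treated mice of either genotype thus lay below all VEH-WT mice. They overlapped the VEH-CD mice: VERCUR-WT mouse 2 and VERCUR-CD mouse 2 lay below VEH-CD mouse 2 (-0.68). All co-treated mice lay above VEH-CD mice 1 and 3 (-1.37 and -0.82). Between VERCUR-CD and VERCUR-WT the list had a median log2 fold change of -0.08, and 0 of the 24 genes had an estimate below 0 with an unadjusted p under 0.05, beside 1.91% of all genes.

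Promoter sequences of the lower genes were examined for the cyclic AMP response element, TGACGTCA, the site through which CREB family factors act on many activity-induced genes. RefSeq windows on GRCm38.p6, from 250 bases before to 50 bases after each transcription start, were available for 27025 gene symbols, and both strands were searched (the motif reads the same on each). The 8 letters were present for 2.03% of these symbols. Of the 19 lower DEGs outside the interval 13 had a window, and 1 of these (Cnnm4) held the 8 letters. The promoters of Sik1, Spry4, Ighg2c, Cdr2l, Pcdhb17 and Pcdhb3 had no window and were not examined. The shorter core TGACG, which lies within the longer motif and was searched on both strands, was present for 23.0% of all symbols and for 5 of the 13 (Cnnm4, Gm45351, Klf2, Klf4 and Zfp189). The AP-1 letters TGACTCA and the Egr letters GCGTGGGCG were in 0 of the 13, beside 5.95% and 0.707% of all symbols.

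In the lists, the 8 letters were present for 2 of 19 activity-induced transcription factors with a window, for 5 of 22 effectors and for 3 of 16 MAPK feedback inhibitors. Of these genes, Maff, Errfi1, Arl5b, Arl4d and Scg2 had an estimate below 0 with an unadjusted p under 0.05. Btg2, Pcsk1, Plk2, Dusp1 and Dusp8 did not reach that threshold, and Dusp8 had an estimate of 0.02 ± 0.06 SE. The shorter core was present for 14 of the 19, 16 of the 22 and 7 of the 16. A match is a description of the letters and says nothing of whether a factor binds there. The promoter of Cnnm4 is shown because it is the lower DEG with the full motif. Those of Maff (a small Maf transcription factor), Errfi1 (an inhibitor of the EGF receptor) and Arl5b (a small GTPase of the Golgi) are shown because they have the smallest p among activity-list genes that hold it and whose vehicle groups did not overlap. They were picked after their values were seen. All 4 are on the plus strand, 5′ to 3′, with the motif in capitals.
Cnnm4, chr1:36471347-36471646: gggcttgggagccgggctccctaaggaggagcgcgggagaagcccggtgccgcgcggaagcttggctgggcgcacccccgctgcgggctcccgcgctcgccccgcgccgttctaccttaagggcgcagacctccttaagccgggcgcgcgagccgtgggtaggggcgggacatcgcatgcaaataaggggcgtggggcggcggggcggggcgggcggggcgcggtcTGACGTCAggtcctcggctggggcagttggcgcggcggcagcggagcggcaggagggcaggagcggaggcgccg
Maff, chr15:79347270-79347569: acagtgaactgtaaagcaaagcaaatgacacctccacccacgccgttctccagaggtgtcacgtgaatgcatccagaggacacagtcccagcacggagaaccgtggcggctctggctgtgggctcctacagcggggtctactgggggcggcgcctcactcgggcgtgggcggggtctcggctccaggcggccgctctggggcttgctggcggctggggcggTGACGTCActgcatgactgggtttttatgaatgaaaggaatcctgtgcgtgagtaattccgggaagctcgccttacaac
Errfi1, chr4:150854820-150855119: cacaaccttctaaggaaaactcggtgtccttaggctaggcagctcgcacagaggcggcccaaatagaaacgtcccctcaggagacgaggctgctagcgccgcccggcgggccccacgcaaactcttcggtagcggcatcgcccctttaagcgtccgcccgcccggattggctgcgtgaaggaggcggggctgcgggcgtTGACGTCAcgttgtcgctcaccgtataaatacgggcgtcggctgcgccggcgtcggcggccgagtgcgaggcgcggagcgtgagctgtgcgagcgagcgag
Arl5b, chr2:15055070-15055369: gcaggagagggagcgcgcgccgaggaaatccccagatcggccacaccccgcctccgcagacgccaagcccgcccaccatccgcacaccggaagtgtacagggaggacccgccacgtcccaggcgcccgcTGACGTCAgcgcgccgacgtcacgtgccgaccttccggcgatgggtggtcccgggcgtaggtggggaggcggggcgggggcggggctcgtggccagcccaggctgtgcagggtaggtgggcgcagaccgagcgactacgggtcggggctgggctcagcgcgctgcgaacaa
Counted from the transcription start, the motif begins at -24 in Cnnm4, -29 in Maff, -51 in Errfi1 and -121 in Arl5b. Cnnm4 read 814, 980.3 and 817 in VEH-WT and 588, 683 and 594 in VEH-CD. Maff, which did not pass the DEG rule, read 38.1, 71.6 and 59.1 against 19.4, 13.3 and 31.1 (adjusted p = 0.13). Errfi1 was at 74.5% of VEH-WT and Arl5b at 67.1%, both with an adjusted p of 0.158.

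Chaperones formed another list with estimates on one side. All 23 heat shock and endoplasmic reticulum chaperones tested had an estimate below 0, with a median log2 fold change of -0.34, 0 were DEGs, and 11 had an unadjusted p under 0.05. In 11 of the 23 every VEH-CD mouse lay below every VEH-WT mouse, beside 11.4% of all genes. Hspa5, the main chaperone of the endoplasmic reticulum, read 13553, 17815 and 14928 in VEH-WT and 9965, 13253 and 11436 in VEH-CD (log2 fold change -0.42 ± 0.12 SE, adjusted p = 0.215). Hspa1a, the inducible cytosolic HSP70, read 959, 1991 and 1299 against 785, 939.5 and 866 (adjusted p = 0.216). Hsp90aa1, by contrast, was at 97.3% of VEH-WT. VEH-WT mouse 2 was the highest for both Hspa5 and Hspa1a, and without it 7 genes rather than 11 had an unadjusted p under 0.05, with a median of -0.21. The member with the smallest p was Hspb1 (-0.68 ± 0.18 SE, limma adjusted p = 0.168), which lies 0.538 Mb outside the deleted interval. Between VERCUR-CD and VERCUR-WT the list had a median log2 fold change of -0.12. There 5 of the 23 had an estimate below 0 with an unadjusted p under 0.05, beside 1.91% of all genes.

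Genes that respond to glucocorticoids, the stress hormones of the adrenal gland, had a median log2 fold change of -0.42 over 23 tested. None was a DEG by limma, and 10 had an estimate below 0 with an unadjusted p under 0.05. Tsc22d3, a glucocorticoid-induced leucine zipper protein, read 3221, 4665 and 4533 in VEH-WT and 2773, 2221 and 2920.4 in VEH-CD (adjusted p = 0.159). Sgk1, a kinase induced by glucocorticoids, read 2464, 4605 and 5065 against 2279, 1933 and 2449.6 (adjusted p = 0.218). The median was -0.26 without VEH-WT mouse 3 and -0.22 without both striatum-rich mice, and without VEH-CD mouse 2 the 10 became 7. Fkbp5, a co-chaperone of the receptor and a classical target, was at 102% with overlapping groups. The list shares 3 genes with the activity-induced effectors and 1 with the MAPK feedback inhibitors. It also shares Per1 with the circadian list, Nfkbia with the NF-kappa B list and Txnip with the inflammasome list. Per1 is among the activity-induced effectors too, so these lists are not separate results.

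In the circadian list 19 genes were tested, 0 were DEGs and 5 had an estimate below 0 with an unadjusted p under 0.05. These were Bhlhe40, Per1, Nfil3, Rora and Rorb, and without VEH-WT mouse 2 the 5 became 3. Bhlhe40, a clock-linked repressor that is also induced by activity, read 7911, 12869 and 7853 in VEH-WT and 4560.0, 6282 and 4554 in VEH-CD (adjusted p = 0.0709). Per1, a core clock repressor, was at 54.1% (adjusted p = 0.213). Arntl, the core clock activator, had an estimate of 0.06 with overlapping groups. The 17 NF-kappa B subunits and inhibitors included 0 DEGs, and 4 members (Nfkbia, Nfkbiz, Relb and Rel) had an estimate below 0 with an unadjusted p under 0.05.

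**Figure D4:**
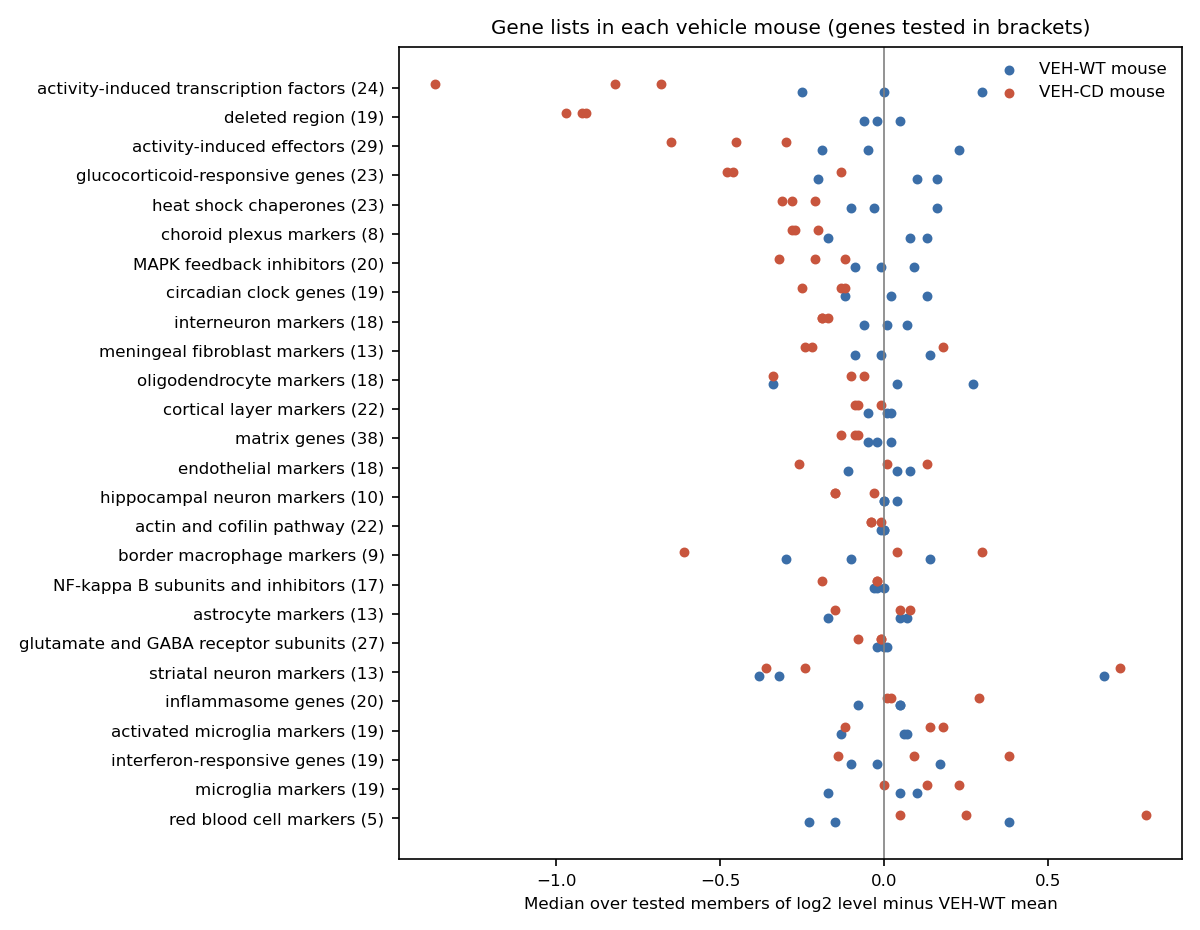
Each point is the median over the tested members of a list, in 1 vehicle mouse, of log2(normalized count + 1) minus the VEH-WT mean of the gene, with lists ordered by median log2 fold change. The VEH-CD mice lie left of the VEH-WT mice for the deleted-region, activity, chaperone and interneuron lists. They also do so, by narrow gaps, for the choroid plexus, matrix and hippocampal lists. The striatal list sets 1 mouse of each group apart.

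Markers of cell types gave no DEG. Interneuron markers had 17 of 18 estimates below 0, a median log2 fold change of -0.17 and 6 members below 0 with an unadjusted p under 0.05. The list median was 0.01, -0.06 and 0.07 in the VEH-WT mice and -0.19, -0.19 and -0.17 in the VEH-CD mice. Lhx6, a transcription factor of interneurons from the medial ganglionic eminence, read 1129.8, 1081 and 1207 in VEH-WT and 967, 944 and 901 in VEH-CD (log2 fold change -0.28 ± 0.07 SE, adjusted p = 0.157). Reln, a secreted protein of layer 1 and other interneurons, was at 80.3%, and Gad1, an enzyme of GABA synthesis, at 87.3%. The subtype markers Pvalb, Sst and Vip had overlapping groups. Without both striatum-rich mice 3 rather than 6 of these markers had an unadjusted p under 0.05. In bulk tissue, fewer cells of a type and less RNA per cell cannot be told apart.

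Microglia markers had a median of 0.11 over 19 tested (from 0.02 to 0.17 with each vehicle mouse left out), and 4 of the 19 estimates were below 0. None was a DEG, and 2 members above 0 and 1 below 0 had an unadjusted p under 0.05. P2ry13, a purinergic receptor of resting microglia, read 548, 319.8 and 570.2 in VEH-WT and 732, 610.2 and 649 in VEH-CD (adjusted p = 0.32). Aif1, which encodes IBA1, read 223, 192 and 206 against 311, 218 and 259, with overlapping groups (adjusted p = 0.425). Olfml3, another microglial gene, pointed the other way at 77.7% (adjusted p = 0.222). Of 19 activated microglia markers tested 2 had an unadjusted p under 0.05, the lysosomal gene Cd68 and the lipase gene Lpl, both with estimates above 0. Astrocyte, oligodendrocyte, striatal, meningeal fibroblast and red blood cell lists had 0 DEGs and 0 members with an unadjusted p under 0.05. Red blood cell markers summed to between 17575 and 26146 in VEH-WT and between 20822 and 35997 in VEH-CD, and the groups overlapped.

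Border macrophage markers had a median of -0.04 over 9 tested (from -0.25 to 0.26 with each vehicle mouse left out), 0 DEGs and 5 estimates below 0. With an unadjusted p under 0.05, 2 members (Stab1 and Lyve1) lay below 0 and 0 above, beside 6.73% and 5.07% of all genes. Lyve1 was at -0.97 ± 0.32 SE without overlap (limma adjusted p = 0.27), and Mrc1 at -0.44 ± 0.28 SE with overlapping groups. Stab1, a scavenger receptor, had the smallest p of the list and read 651, 734 and 625 in VEH-WT and 451, 409.7 and 495 in VEH-CD (adjusted p = 0.0709). Pf4 and Cd163 had estimates of 0.57 ± 0.26 SE and 0.32 ± 0.27 SE with overlapping groups. Slc2a1, the glucose transporter of the blood-brain barrier, was at 76.8% (adjusted p = 0.159). Endothelial and choroid plexus lists had medians of -0.06 over 18 and -0.26 over 8 genes, with 2 and 1 members below 0 at an unadjusted p under 0.05. Hippocampal markers had a median of -0.06 over 10 genes, with 1 member on either side of 0 at that threshold. The layer list gave 0 DEGs among 22 genes, and 2 members on either side of 0 had an unadjusted p under 0.05. The smallest adjusted p of these was that of Rprm, a layer 6 marker, at 1.22-fold (adjusted p = 0.0926). Nlrp3, the inflammasome sensor, was at 1.54-fold of a low count, from between 27.7 and 34.8 to between 47.9 and 51.4 (adjusted p = 0.362), and the other 19 inflammasome genes did not reach an unadjusted p under 0.05. Git1 was the single DEG among 22 genes of the actin and cofilin list, in which 4 members (Git2, Ssh2, Pak2 and Rock1) had an estimate below 0 with an unadjusted p under 0.05, against 1 without VEH-WT mouse 3.

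Each DEG of the vehicle mice was finally read in the co-treated mice, where 25 genes (0.146%) were DEGs by the same rule and 25 (0.146%) had an adjusted p under 0.05. All 19 deleted genes had a lower estimate there with an unadjusted p under 0.05, and a median log2 fold change of -1.06. Of the 28 DEGs outside the interval 8 had an adjusted p under 0.05 and the same direction: Trim50, Git1, Zfp180 and Dmgdh were higher, and Gm45351, Gm5784, Ighg2c and Gm14295 were lower. Git1 was at 0.46 ± 0.05 SE on the log2 scale, Zfp180 at 0.58 ± 0.06 SE and Dmgdh at 2.13 ± 0.29 SE.

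The other 20 had an adjusted p of at least 0.185 in the co-treated contrast. Of these, 15 were lower in the vehicle mice, with a median log2 fold change of -0.76, and the median of the same 15 genes in the co-treated mice was -0.04. For Sik1 the co-treated estimate was -0.00 ± 0.27 SE, for Klf4 -0.08 ± 0.17 SE, and for Zfp189 0.47 ± 0.16 SE. Over all 20 the co-treated log2 fold changes ran from -0.65 to 0.47, so not every gene lay near 0. A p that misses the threshold in one pair of groups does not show a difference from the other pair. In the test of the difference itself, the interaction of genotype and treatment, 16 of the 20 had an unadjusted p under 0.05, beside 6.05% of all genes. The largest unadjusted interaction p among the 20 was 0.347 (limma). None of the 17111 genes had an adjusted interaction p under 0.05 (limma, 1035 genes with an unadjusted p under 0.05), and the smallest adjusted value was 0.532. The 20 genes were chosen from the vehicle contrast, which also enters the interaction, so their count is a description.

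**Figure D5:**
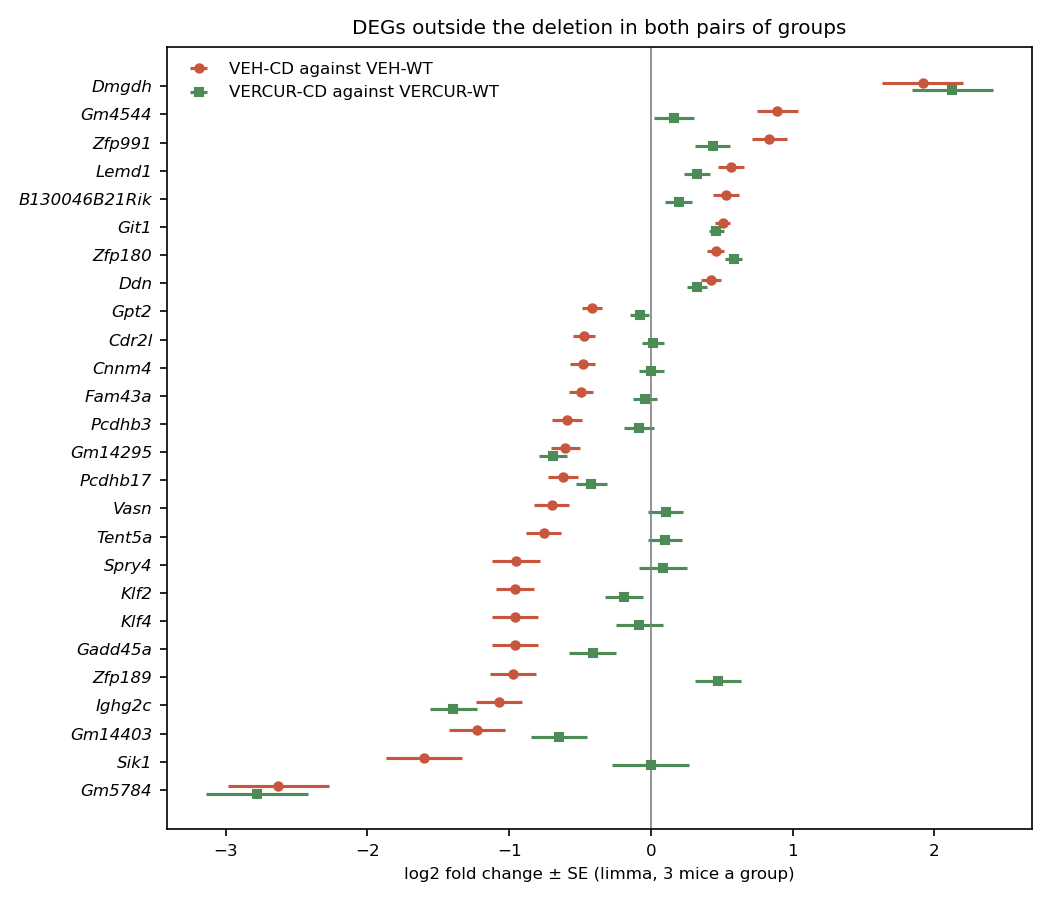
Log2 fold change with its standard error for 26 DEGs outside the interval, in vehicle mice (circles) and co-treated mice (squares), with 3 mice in each group; Trim50 and Gm45351, each near 0 reads in one group, are left out. Git1, Zfp180, Dmgdh, Gm5784, Ighg2c and Gm14295 have similar values in both pairs, and the squares of Sik1, Klf2, Klf4 and Spry4 lie near 0.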

How the data were processed

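RNA-seq covered the cortex of 12 mice, and the sample labels placed 3 in each of 4 groups. The authors checked reads with FastQC, aligned them to GRCm38 with STAR 2.5.3a, and deposited normalized counts per gene and mouse (reads divided by 1 factor per sample, written with decimal commas). The counting program and strand setting are not given in the sources used here. Dividing by the smallest step in a sample gave whole numbers for 100% of low values (tolerance 0.1 of a read), and depth was read from that step. A further 2 deposited tables, with values relative to VEH-WT for genes the authors selected in their comparisons, were not used.

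The 17111 genes with a mean of at least 10 were analysed as log2(normalized count + 1) in limma 3.58.1 (R 4.3.3), with 4 group means, an intensity trend and two-sided tests. Adjustment over all of them followed Benjamini and Hochberg. The fit was tested on simulated data. Values ± SE are log2 fold changes, percentages of VEH-WT are back-transformed from them, and per-mouse values are normalized counts in the order of mice 1, 2 and 3. Levels were not compared between genes. Positions are those of GENCODE M21, in which 17181 of the genes were found.

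Named genes were every DEG, the deleted genes tested and their flanks, for each list the members with the smallest p and defining markers, and activity-list genes whose vehicle groups did not overlap, of which a part is named; any others were picked with values in view. The members and the 26 gene lists were chosen with earlier results of these data known. Alternatives were pseudocounts, filters, scalings, designs, each vehicle mouse left out, and, added after the data were seen, voom on the recovered reads and leaving out both mice high in striatal markers. Nothing in the labels says that mice came from separate litters, so p-values measure the spread between these mice.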

Additional observations from a re-analysis of the deposited data

How the results depend on the processing

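The count of DEGs outside the deletion was the result that depended on the processing. All DEGs between VEH-CD and VEH-WT (44) ranged from 24 to 47 and those outside the interval (28) from 8 to 31 when each vehicle mouse was left out in turn, while 16 deleted genes were called in each of these fits. Such fits have fewer mice, and the count outside the interval was 31 without VEH-WT mouse 1 and 31 without VEH-CD mouse 2. Why it was lower without other mice was not tested. Without an intensity trend 30 DEGs were called, 14 outside the interval. Leaving out both mice high in striatal markers, an alternative chosen after seeing the data, gave 18 DEGs in all, 3 outside the interval, and 3 of those with the same direction and an adjusted p under 0.05 in the co-treated mice. That last count, 8 with all mice, was 5 with a mean of at least 50, 4 with only genes of a coefficient of variation under 20%, and from 5 to 8 over the leave-one-out fits. With fewer genes tested, members of the 8 drop out by construction.

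With the replicate number as a block (replicate block) 40 genes were called, 24 outside the interval. Deviations of same-numbered vehicle mice correlated at -0.032, 0.221 and 0.081, so the numbers were not taken to pair the mice. Pseudocounts of 0.1 and 5, no filter, quantile normalization, median centring, only the groups compared, and voom on the recovered reads (added after seeing the data) gave from 36 to 45 DEGs, and only genes with a coefficient of variation under 20% gave 52, with 36 outside the interval. The median of all genes moved by 0.016 or less under the scalings. Over 83 named genes 0 of 1457 alternative values changed sign, and 179 lost and 13 gained a call. The planned edgeR and DESeq2 fits were not run, and voom on the recovered reads took their place. The cause of the differences between mice was not tested. With 3 mice a group and a median standard error of 0.113, differences of about 17.0% sit at 2 standard errors for a gene of median spread. The DEG rule needs a larger difference than that. Nr2f1, for example, had a log2 fold change of 0.44 ± 0.08 SE and was not called (limma adjusted p = 0.0513). Smaller differences in the lists without a DEG could therefore have been missed.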

Other observations

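Receptor and matrix genes included no DEG. Of 27 glutamate and GABA receptor subunits tested 0 were DEGs, and the median log2 fold change was -0.02. Gabra3, a GABA-A receptor subunit, was the member with an unadjusted p under 0.05. It read 8988, 8611 and 8137 normalized counts in VEH-WT and 9536, 10336 and 9933 in VEH-CD (adjusted p = 0.341). In 5 of the 27 every VEH-CD mouse lay below every VEH-WT mouse, and in 2 above, beside 11.4% and 9.28% of all genes. Among 38 matrix genes 0 were DEGs by limma and the median was -0.08. The matrix median by mouse was -0.02, -0.05 and 0.02 in VEH-WT and -0.09, -0.13 and -0.08 in VEH-CD, and 7 of the 38 were lower without overlap, beside 11.4% of all genes. Of these 38 genes 4 had an estimate below 0 with an unadjusted p under 0.05, among them the metalloprotease gene Adam19 at -0.43 ± 0.17 SE and the laminin subunit gene Lamc1 at -0.25 ± 0.09 SE, and 1 (Sparc) had an estimate above 0. The interferon-responsive list had a median of 0.07 over 19 genes, and Irf9, a subunit of the interferon response complex, lay at 79.5% of VEH-WT (adjusted p = 0.255).

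Of the genes just outside the DEG rule, Nr2f1, a transcription factor of cortical area patterning, read 4396, 3815 and 3906 in VEH-WT and 5619, 5174 and 5637 in VEH-CD (fold change 1.36, adjusted p = 0.0513). Cbln4, a synapse organizer secreted by some interneurons, read 623, 565 and 607 against 339, 377 and 422 (adjusted p = 0.0697). Srf, the serum response factor that drives many immediate early genes, was at 76.0% (adjusted p = 0.0697). These 3 genes were chosen after their values were seen.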
